A study of Mus musculus with 45 samples.

Results

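The 243 binding sites described here were the strongest peaks of REV-ERBα in mouse liver at zeitgeber time 10 (ZT10), hour 10 of the light-dark cycle. They were chosen by the fold enrichment in the deposited ZT10 peak list, which is the ratio of the signal at the summit of a peak to its local background, with a limit of 30. The list held 27929 peaks, so the strongest made up 0.870% of it. Because the fold chose these sites, folds, widths and the signal at ZT10 are given as descriptions with no test. Chromatin immunoprecipitation with sequencing was done with anti-HA magnetic beads on livers of REV-ERBa3HA/3HA mice, in which both copies of the gene carry a 3HA epitope tag, with 4 samples at ZT10 and 4 at ZT22. None of these mice had received a virus, and sex, age and strain are not given in the labels for them. Isolated liver nuclei were fixed with formaldehyde and then with EGS, a longer crosslinker, the chromatin was sonicated, and Tn5 tagmentation made the libraries. The 4 samples of a time went into a single pooled list, per the labels, so a peak has 1 value per time with no spread between replicates. The other 37 of the series' 45 samples were not analysed here, among them untagged liver immunoprecipitated with anti-HA, so the part of the antibody in these peaks was not tested.

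REV-ERBα, encoded by Nr1d1, is a nuclear receptor that lacks the activation helix of other members of its family and represses transcription by recruiting the NCOR1 corepressor with its histone deacetylase HDAC3. It binds DNA at a core of AGGTCA with an A/T-rich stretch before it, the element that the activating ROR receptors also recognise, and its protein level in liver rises and falls every day with a peak in the light phase. It is best known for repressing Arntl, which encodes the clock activator BMAL1, and for the control of lipid, glucose and bile acid metabolism in hepatocytes.

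Promoter sequences show what lay under or near some of these summits. Each is printed 5′ to 3′ on the strand of its gene, from the promoter table of RefSeq (GRCm38.p6, the same coordinates as the build mm10 of the peaks). Capitals mark the core AGGTCA, with its longer form TAGGTCA, the variant TGGGTCA and the E-box CACGTG, on either strand. The core on the other strand reads TGACCT. Positions count from 0 at the annotated start of transcription, with bases before it negative. The first 5 sequences hold an AGGTCA match in the promoter of a strong site, at the distance from the summit given with each. The printed stretches of Arntl, Abcb11 and Nfil3 do not reach the summit. The last 3 are promoters that held a summit and no such match. The Arntl stretch is chr7:113207521-113207550 on the plus strand, bases 10 to 39 after the start, and the summit lay 19 bp from the middle of its TAGGTCA.
Arntl: catttagggaaggcagaaagTAGGTCAggg
The Bhmt stretch is chr13:93637759-93638008 on the minus strand, the 250 bases before the start. The summit lay 221 bp before the start and 11 bp from the TAGGTCA, and these bases hold 3 AGGTCA matches, that in the TAGGTCA included, and 1 TGGGTCA.
Bhmt: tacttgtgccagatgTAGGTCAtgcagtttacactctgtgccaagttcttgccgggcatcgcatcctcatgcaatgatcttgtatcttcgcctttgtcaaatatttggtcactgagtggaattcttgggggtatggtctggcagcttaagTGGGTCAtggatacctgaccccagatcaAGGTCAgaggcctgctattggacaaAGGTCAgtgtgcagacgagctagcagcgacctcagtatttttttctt
The Sumo3 stretch is chr10:77613649-77613708 on the plus strand, the 60 bases before the last of the gene's 3 annotated starts. The summit lay 10 bp from the AGGTCA.
Sumo3: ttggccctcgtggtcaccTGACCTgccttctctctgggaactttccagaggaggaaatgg
The Abcb11 stretch is chr2:69342617-69342716 on the minus strand, the 100 bases before the start, and the summit lay 205 bp from the TAGGTCA.
Abcb11: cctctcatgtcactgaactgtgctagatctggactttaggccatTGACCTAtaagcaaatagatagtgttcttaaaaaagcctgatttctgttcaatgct
The Nfil3 stretch is chr13:52981040-52981099 on the minus strand, the 60 bases before the start, and the summit lay 447 bp from the TAGGTCA, inside the gene.
Nfil3: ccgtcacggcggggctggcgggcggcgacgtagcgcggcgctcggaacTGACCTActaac
The Nr1d1 stretch is chr11:98775378-98775527 on the minus strand, the 150 bases before the start, with the summit 89 bp before the start.
Nr1d1: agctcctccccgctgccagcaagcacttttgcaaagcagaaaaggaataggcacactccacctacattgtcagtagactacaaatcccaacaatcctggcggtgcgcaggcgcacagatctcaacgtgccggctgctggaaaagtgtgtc
The Nr0b2 stretch is chr4:133553176-133553375 on the plus strand, the 200 bases before the start, with the summit 124 bp before the start and 68 bp from the E-box.
Nr0b2: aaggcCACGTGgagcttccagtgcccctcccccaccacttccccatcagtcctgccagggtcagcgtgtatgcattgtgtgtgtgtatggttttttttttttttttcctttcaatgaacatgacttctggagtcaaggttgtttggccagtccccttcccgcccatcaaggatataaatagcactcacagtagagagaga
The Ldha stretch is chr7:46845554-46845803 on the plus strand, the 250 bases before the start, with the summit 187 bp before the start and 44 bp from the nearer of 2 E-boxes.
Ldha: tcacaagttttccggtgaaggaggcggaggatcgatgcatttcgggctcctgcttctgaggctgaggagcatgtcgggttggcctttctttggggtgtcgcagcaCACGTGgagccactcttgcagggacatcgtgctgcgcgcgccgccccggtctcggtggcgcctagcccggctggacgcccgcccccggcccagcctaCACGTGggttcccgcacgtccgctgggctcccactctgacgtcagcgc

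Within the set the folds were very uneven. They ran from 30.01 to 152.7 with a median of 34.6, against a median of 6.76 for the other 27686 peaks. Only 3 sites had a fold of 100 or more, 21 had 50 or more and 62 had 40 or more, while 181 lay under 40. The number of fragments at a summit, worked out from the fold and the −log10 p that the authors deposited for the same peak, ran from 649 to 3321 with a median of 754, against a median of 148 at the other summits. The fewest of these, 649, carry a counting error of about 7.69% either way at 95%, which covers counting error only. Local background was the lowest of the list at 219 of the 243 (90.1%), against 87.0% of the other peaks. The order by fold is therefore close to the order by fragments at most of these sites, with exceptions named below.

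**Figure D1:**
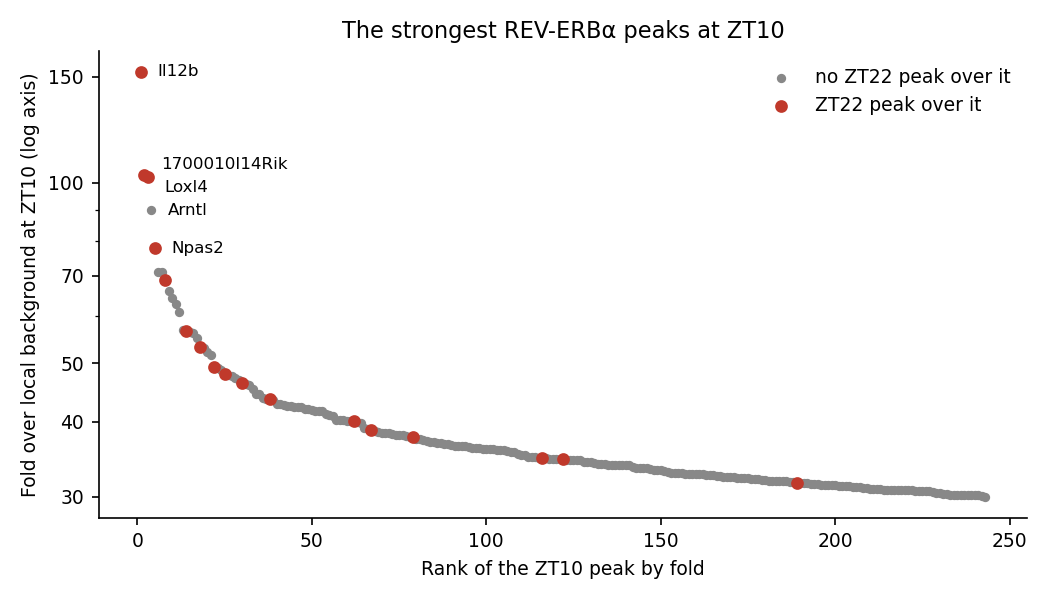
The 243 strongest ZT10 peaks in order of their fold over local background (vertical axis, log scale; horizontal axis, rank by fold), each point 1 peak of the pooled list and red where a ZT22 peak overlapped it. The fold drops from 152.7 at the first site to 49.3 at rank 22, and 11 of the 17 red points are among the 40 highest.

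The strongest site lay outside any protein-coding gene at chr11:44167577-44176973, 226720 bp before the start of Il12b, which encodes an interleukin subunit, and had 3321 fragments at its summit. The next had folds of 103.0 and 101.99. The first of these lay inside 1700010I14Rik on chromosome 17, 7313 bp after its start, with 2239 fragments. The other lay inside Loxl4 on chromosome 19, a lysyl oxidase gene that crosslinks matrix proteins, 10792 bp after its start, with 2216 fragments. None of these 3 genes was on a list of clock or liver genes.

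Arntl and Npas2 followed. The Arntl peak, at chr7:113204746-113211949, had a fold of 89.8 and its summit 52 bp after an annotated start. That start lies within the gene's full span, whose closer end was 29092 bp from the summit. It had 2279 fragments, more than 1700010I14Rik and Loxl4, and a local background above the lowest of the list. At Npas2, whose product pairs with BMAL1 in place of CLOCK, the summit lay 1344 bp before the annotated start, with a fold of 77.7 and 1708 fragments. A further Npas2 peak lay 91408 bp before that start with a fold of 34.0.

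Below these, the genes nearest to the 40 sites of highest fold had varied roles. Signalling genes among them were Adcy1, an adenylyl cyclase (56.2), Ppp2r5c, a regulatory subunit of protein phosphatase 2A (53.3), Lrp5, a coreceptor for Wnt ligands (52.2) and Nrip1, the corepressor RIP140 (53.0). Ppard, a nuclear receptor for fatty acids, had a fold of 49.3 and Cry1, a repressor in the core clock, 49.1. Genes of DNA repair, replication and the cell cycle were Rpa1 (64.2), Palb2 (55.1) and Cdkn1a, which encodes the inhibitor p21 (51.5), with the Cdkn1a summit 943 bp after its start. Enzyme genes were Cda, cytidine deaminase (48.7), H6pd, which supplies NADPH in the endoplasmic reticulum (48.0), Dhrs3, a retinaldehyde reductase (44.5), Fars2, a mitochondrial phenylalanyl-tRNA synthetase (47.8), Ust, a sulfotransferase (56.9), Dph6 of diphthamide synthesis (46.1) and Pon1, a paraoxonase carried on high-density lipoprotein (42.8). Spring1, a regulator of the SREBP pathway of sterol synthesis, had a fold of 46.4 with its summit 47062 bp from the annotated start.

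The rest of the 40 were Gfod1 (71.0), Nolc1 (68.9), Arid3a (65.9), Rnase10 (60.8), Pdcl3 (56.5), Cmtm7 (56.5), Sh3pxd2a (47.6), Rnf125 (47.2), 4930591A17Rik (46.9), Commd7 (46.0), Tor3a (45.3), Paqr9 (44.5), Marchf11 (43.7), Tmem218 (43.7), Nid2 (43.6) and Zfp652 (43.4), and 2 peaks near Irs2. The value in parentheses is the fold at ZT10 and the gene is the one whose end is nearest to the summit, not a shown target. Of the 40, 19 had their summit inside a protein-coding gene. The summit near Dhrs3 lay inside its neighbour Vps13d, and at 9 of all 243 sites a gene other than the nearest held the summit. Among these, the summits at Ccdc33 and Tmem255b lay inside the nearest gene as well.

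Core clock genes took a larger share of these sites than of weaker ones, by counts with no test. Of 20 core clock genes on the list, 5 were nearest to 6 of the 243 sites (2.47%), against 87 of the other 27686 peaks (0.314%). Besides Arntl, Npas2 and Cry1 these were Rora, an activating receptor at the same DNA element (35.9), and Nr1d1 itself (35.9). The Rora summit lay inside the gene, 48793 bp from its nearer end, and the Nr1d1 summit 89 bp before the start of the gene that encodes the protein immunoprecipitated here. Nr1d1 had 912 fragments, well above the 778 of Rora at the same fold, where the local background was lower. Of 13 output factors of the clock, 2 were nearest to 1 site each. These 2 sites are 0.823% of the 243, against 75 of the other peaks (0.271%). They were Nfil3, a repressor at D-box elements, with 42.6 and a summit 438 bp after the start, and Klf9, a zinc-finger factor, with 30.9 at 5200 bp before the start.

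**Figure D2:**
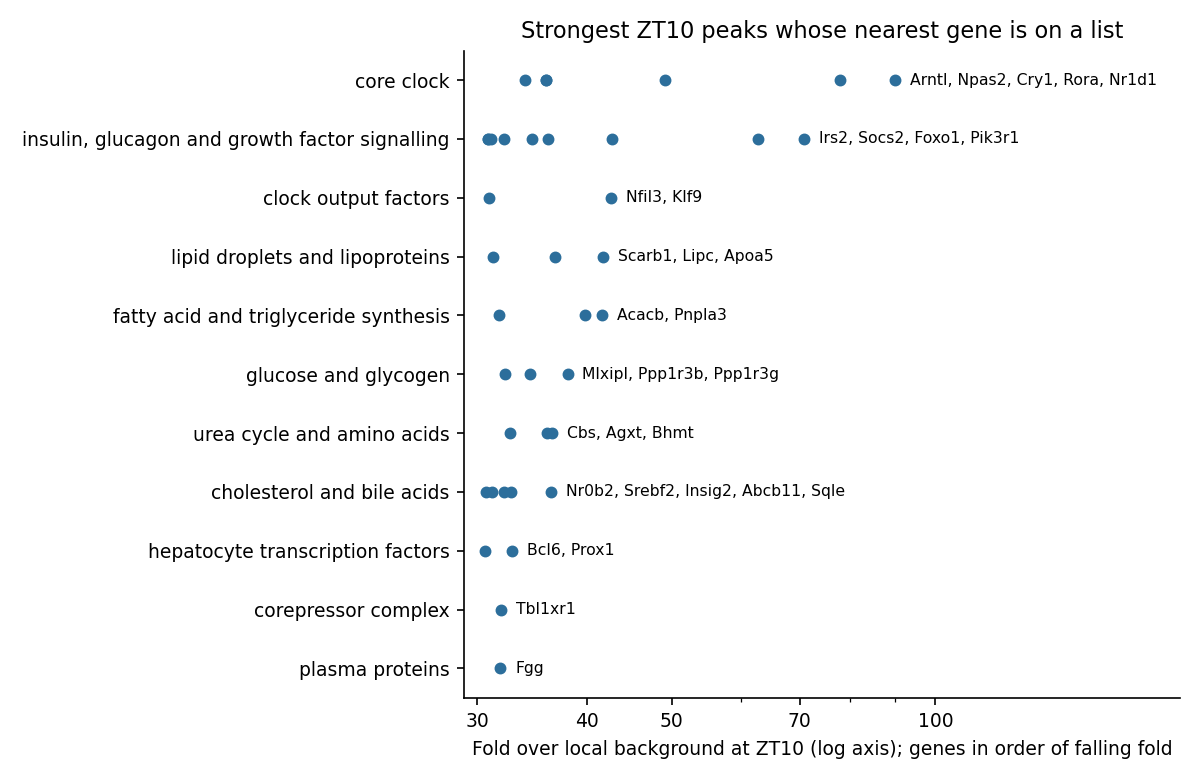
Folds at ZT10 (horizontal axis, log scale) of 38 strongest peaks whose nearest protein-coding gene was on 1 of the gene lists (rows), each point 1 peak, with the genes named in order of falling fold. The core clock row reaches 89.8 and the row of insulin, glucagon and growth factor signalling 70.8, while the other rows stay under 43.

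Genes of insulin and growth factor signalling were nearest to 9 sites (3.70%), against 277 of the other peaks (1.0%). Of the 9, 6 lay around Irs2, the main docking protein of the insulin receptor in liver. Their folds were 70.8, 62.7, 42.7, 32.2, 30.8 and 30.8. They spread over 136616 bp on chromosome 8, from 135628 bp after the annotated start, beyond the far end of the gene, to 988 bp before that start. The 2 highest lay beyond the gene by 44599 bp and 111380 bp, and the peak at the start was among the weakest of the 6. No other gene was nearest to more than 2 of the sites. Socs2, a brake on growth hormone signalling, had a fold of 36.1 at 521 bp from the gene, Foxo1, the transcription factor that insulin switches off, 34.7 at 251136 bp, and Pik3r1, a regulatory subunit of PI3-kinase, 31.2 at 306814 bp.

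Carbohydrate genes were nearest to 3 sites (1.23%), against 85 of the other peaks (0.307%). Mlxipl, which encodes the glucose-responsive factor ChREBP, had a fold of 38.0 with its summit 1507 bp after the start. Ppp1r3b and Ppp1r3g, which bring protein phosphatase 1 to glycogen, had 34.5 and 32.3. Ldha, lactate dehydrogenase, was not on a list and is named because its promoter held a summit, with a fold of 34.9.

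Lipid synthesis and lipoprotein genes were nearest to 3 sites each (1.23%), against 128 (0.462%) and 85 (0.307%) of the other peaks. In the synthesis list these were Acacb, acetyl-CoA carboxylase 2 (41.6), and Pnpla3, a lipase of lipid droplets, with 2 sites (39.8 and 31.8), the nearer of which lay 825 bp after its start. Among lipoprotein genes they were Scarb1, the receptor for high-density lipoprotein (41.7), Lipc, hepatic lipase (36.9), and Apoa5, an apolipoprotein that lowers triglycerides (31.2). No site had as its nearest gene any of the 25 listed genes of fatty acid oxidation and ketogenesis, the nearest of 67 other peaks (0.242%).

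Cholesterol and bile acid genes were nearest to 5 sites (2.06%), against 115 of the other peaks (0.415%), with folds from 30.7 to 36.4. The highest was at Nr0b2, the bile-acid-induced repressor SHP, with its summit in the promoter printed above. Srebf2, the master activator of cholesterol synthesis, had 32.8, Insig2, which holds that factor's precursor in the endoplasmic reticulum, 32.2, Abcb11, the bile salt export pump, 31.2, and Sqle, squalene epoxidase, 30.7. Abcb11 had its summit 258 bp before its start, and Sqle 36460 bp from the gene.

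Amino acid genes came next. Bhmt and Cbs encode enzymes that remove homocysteine by remethylation and by transsulfuration, with folds of 32.7 and 36.5, and the Cbs summit lay 500 bp after the start. Bhmt2, the neighbouring gene and on no list, had a site of its own (36.0) whose summit lay 10837 bp from that of Bhmt. Agxt, which detoxifies glyoxylate, had 36.1 at 10903 bp before the start.

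Other lists had 2 sites or fewer. Bcl6 (32.9) and Prox1 (30.6) were the only 2 of 38 hepatocyte transcription factors nearest to a site, which is 0.823% of the sites against 1.09% of the other peaks. Tbl1xr1 (32.0) was the only 1 of 12 corepressor genes (0.412% against 0.249%), and Fgg, the fibrinogen gamma chain (31.9), the only 1 of 45 plasma protein genes (0.412% against 0.361%). The 30 genes of xenobiotic and steroid metabolism had 0 sites, against 115 of the other peaks (0.415%). Markers of Kupffer cells, stellate cells, liver endothelium, cholangiocytes and lymphocytes and a list of neuronal genes, 74 genes in 6 lists, had 0 sites, against 74 of the other peaks (0.267%). A count of 0 of 243 allows a share of up to about 1.23%, which is above each of these shares. This limit is the approximation of 3 divided by 243, not a Clopper-Pearson limit. Over all 19 lists, 40 sites (16.5%) had a listed nearest gene, from 32 genes, against 6.07% of the other peaks. The lists were chosen with results of these data known, which bears on the shares for the clock and metabolic lists, and 203 sites had a nearest gene on no list.

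Some sites lay close to each other, a description with no matching share for the other peaks. When summits within 50 kb were linked, 43 of the 243 (17.7%) fell into 19 groups of 2 or more. After the 6 near Irs2, the next group was 3 sites over 77487 bp near Pdcl3 and Npas2, with folds of 56.5, 34.2 and 34.0. Groups of 2 included Rnase10 (60.8 and 42.4), Nrip1 (53.0 and 30.2), 4930591A17Rik (46.9 and 40.3), Commd7 (46.0 and 35.8) and Coq8a, a kinase-like protein of coenzyme Q synthesis (41.9 and 38.6). In all, 25 genes were the nearest to 2 or more sites, which made up 54 sites. Besides Irs2, Npas2, Pdcl3 and those 5 they included Gfod1 (71.0 and 30.8), Pnpla3, Slc34a2, Tbx3, Ankrd50, Adra1b, Auh, Wdr72, Nectin1, Ppp2r5a, Stt3b, Hsf2bp, Pnrc1, Gm44812, Bach2 and Nos1ap. Neighbouring ZT10 peaks of any fold within 50 kb numbered 4 at the median site, against 3 at the median other peak. This contrast did not follow the limit, since the median was 4 at folds of 10 to 20 and 20 to 30 and 3 at 30 to 40.

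The comparison with ZT22 asks which of these sites were still bound at the opposite time of day, when the protein is low. The ZT22 list held 36 peaks, 23 of which lay over one of the strongest ZT10 sites. A ZT22 peak overlapped 17 of the 243 sites by at least 1 bp (7.0%, 95% interval 4.13 to 10.97, exact Clopper-Pearson), against 7 of the other 27686 peaks (0.0253%) and 0.0859% of all ZT10 peaks. The other 226 sites had none. The ZT22 list was not used in choosing the sites, but the part of its signal that a site had to keep to be listed at ZT22 depends on its ZT10 level, which chose it. The interval treats the sites as independent, though some lie close together, and leaves out the spread between animals. With 1 pooled list per time no p-value was computed.

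Overlap rose with the fold at ZT10. It was 2 of 1075 peaks with folds of 20 to 30 (0.186%), 5 of 181 with 30 to 40 (2.76%), 5 of 41 with 40 to 50 (12.2%), 4 of 18 with 50 to 100 (22.2%) and all 3 with 100 or more. A strong site needs less of its signal left to be listed at ZT22. The weakest ZT22 peak had 82 fragments at its summit, and the depth of the ZT22 pool relative to ZT10 was 0.97, if both pools had the same control. From these, the median one of the 243 sites needed 11.2% of its ZT10 level to reach 82 fragments, while the median other peak needed 57.1%. For the strongest site the level needed was 2.55%, and for the weakest of the 243 it was 13.03%. Among the other peaks, 53 had as many fragments as the weakest of the 243 and a fold under 30 on account of a higher background, and 2 of these 53 had a ZT22 peak.

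**Figure D3:**
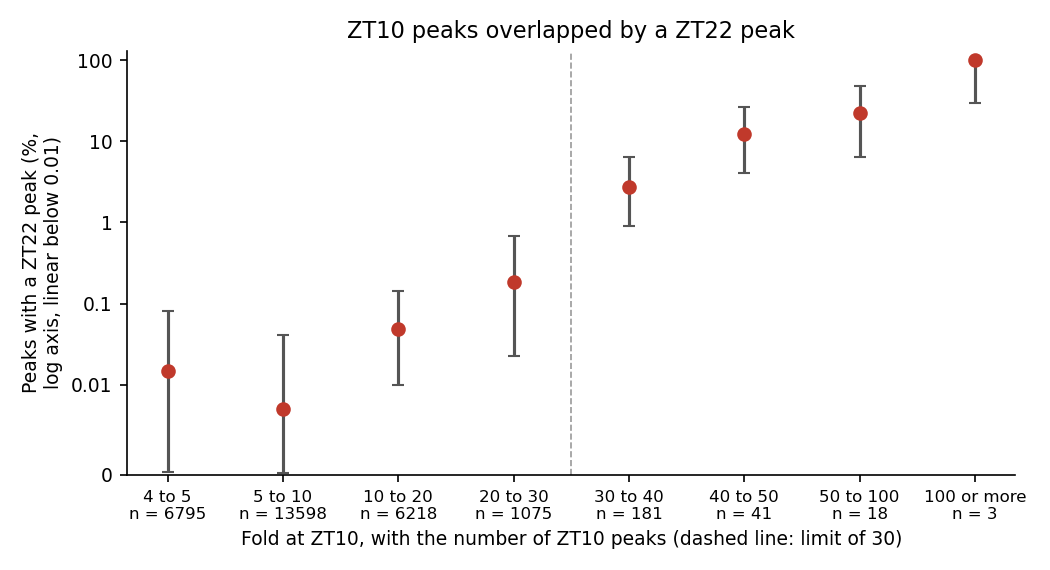
Share of ZT10 peaks overlapped by a ZT22 peak (vertical axis, percent, log scale that is linear below 0.01) in bands of the fold at ZT10 (horizontal axis), with n peaks per band and exact 95% Clopper-Pearson intervals as bars. Shares are 0.186% in the band just under the limit of 30 (dashed line) and 2.76%, 12.2%, 22.2% and 100% above it.

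The share of ZT10 fragments still found at ZT22 differed among the 17 sites. A share exists only where a ZT22 peak was listed, so its lowest possible value rises as the fragments at ZT10 fall. To reach 82 fragments, the median site with a fold of 30 to 40 needed 11.8% and that with 50 to 100 needed 6.31%. Low shares could therefore appear only at sites with many ZT10 fragments. Where several ZT22 peaks lay over a site, as at 5 of the 17, the one of highest fold was used. Fragments at ZT22, corrected for depth, were 37.5% of those at ZT10 at the site nearest Il12b (counting interval 35.1 to 40.1), with 3321 fragments at ZT10 and 1209 at ZT22. The share was 39.97% at 1700010I14Rik (36.9 to 43.3), from 2239 and 868 fragments. It was 34.5% at Loxl4 (31.7 to 37.5), from 2216 and 742. These 3 sites, which have the highest folds of all, kept more than any of the other 14, where the share ran from 6.62% to 25.5%. Background was not subtracted at either time, and it makes up a larger part of the fragments where ZT22 fragments are few. The intervals cover counting error only and leave out the spread between animals.

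Among the other 14, the site near Sbk1 had the lowest fold at ZT10 (31.6) and the highest share, 25.5% (21.4 to 30.2), from 684 and 169 fragments. One of the 2 sites near Adra1b, an adrenergic receptor gene, kept 22.3% (18.7 to 26.5) and the other 11.2% (8.93 to 14.0). For the latter, the ZT22 peak of highest fold had its summit 2421 bp from the ZT10 summit, and the ZT22 peak with the nearest summit, 342 bp away, gave 14.8% (12.1 to 17.97), from 117 fragments. Of the Adra1b sites, the nearer to Il12b lay 245791 bp from the strongest site of all. Ppp2r5c kept 18.5% (15.8 to 21.4). At Npas2 the share was 9.0% (7.56 to 10.6), from 1708 and 149 fragments, so that the only core clock site with a ZT22 peak had a much lower share than the 3 strongest sites. Nolc1 had the lowest share, 6.62% (5.33 to 8.14). The remaining 8 were Nid2 (14.1%), Lrrc8d (13.1%), Spring1 (13.1%), Ppard (12.5%), Pdcl3 (11.2%), Cdh17 (10.6%), Zfpm2 (10.1%) and H6pd (10.0%). At H6pd the ZT22 peak with the nearest summit gave 9.21%. The ZT22 summit at Zfpm2 held 82 fragments, the fewest of any ZT22 peak, so its share was at the lowest level listed. The summit of the ZT22 peak of highest fold lay within 100 bp of the ZT10 summit at 13 of the 17, and that of any ZT22 peak at 14, with H6pd added.

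The strongest site with no ZT22 peak was that in Arntl. With 2279 fragments at ZT10, a ZT22 level of 3.71% would have reached the 82 fragments of the weakest ZT22 peak, if its local background were the lowest. Below it, Gfod1 (71.0), both high Irs2 sites (70.8 and 62.7), Arid3a (65.9), Rpa1 (64.2) and Rnase10 (60.8) had none either. Of the 32 listed genes nearest to a site, Npas2 alone had a ZT22 peak over one of its sites, and that was the peak near its start.

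Positions relative to genes were not used in choosing the sites and differed from those of the other peaks as a whole. Summits lay inside the span of a protein-coding gene at 98 of 243 sites (40.3%, 34.1 to 46.8), against 59.55% of the other peaks and 59.4% of all. By fold, the share was 61.2% at 4 to 5, 61.8% at 5 to 10, 55.3% at 10 to 20, 45.5% at 20 to 30 and 38.1% at 30 to 40. Above that it was 48.8% of 41 peaks at 40 to 50, 38.9% of 18 at 50 to 100 and 66.7% of 3 at 100 or more.

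Strong summits were also scarcer at gene starts than those of the other peaks as a whole. Distance was measured to the nearest annotated start of a protein-coding gene or, for genes with no annotated start, to the nearer end. Within 1 kb lay 22 sites (9.05%, 5.76 to 13.4), against 24.5% of the other peaks. From 1 to 10 kb the shares were 21.8% and 21.0%, from 10 to 50 kb 37.9% and 31.8%, and beyond 50 kb 31.3% (25.5 to 37.5) and 22.7%. The median distance was 24467 bp at these sites and 12824 bp at the other peaks. Over 100 kb away lay 50 sites (20.6%), against 11.7% of the other peaks. Peaks with folds of 20 to 30, just under the limit, were placed much like these sites, with 9.40% within 1 kb and 31.3% beyond 50 kb. Within 1 kb the shares were 26.1% at folds of 4 to 5, 28.9% at 5 to 10 and 15.5% at 10 to 20. Beyond 50 kb they were 20.9%, 21.6% and 25.7% in the same bands. When ends of all annotated genes were counted, noncoding ones included, 14.4% of the sites lay within 1 kb and 6.58% beyond 50 kb. The other peaks were not counted this way, so the contrast with them was not tested for all genes.

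**Figure D4:**
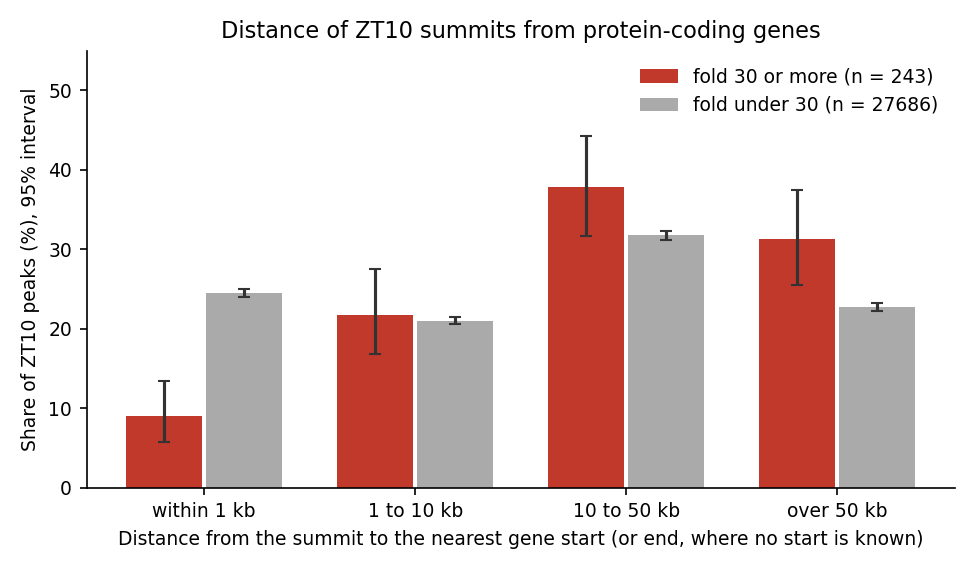
Share of ZT10 peaks (vertical axis, percent, bars from 0 with exact 95% Clopper-Pearson intervals) by distance from the summit to the nearest protein-coding gene start, or end where no start is known, for the 243 peaks with a fold of 30 or more (red) and the other 27686 (grey). Within 1 kb the shares are 9.05% and 24.5%, and beyond 50 kb 31.3% and 22.7%. Peaks with folds of 20 to 30, which are part of the grey bars, had 9.40% and 31.3%.

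The 22 summits within 1 kb were not all shown to be near a promoter. For 17 the distance is to an annotated start, with 9 summits before it and 8 after it. For 5 it is to the nearer gene end, which may be either end of the gene. Those before the start were Sumo3 (29 bp), Nr1d1 (89 bp), Pla2g6 (95 bp), Nr0b2 (124 bp), Ldha (187 bp), Bhmt (221 bp), Abcb11 (258 bp), Coq8a (367 bp) and Irs2 (988 bp). Those after it were Arntl (52 bp), Nfil3 (438 bp), Cbs (500 bp), Rnase10 (588 bp), Btd, the gene of biotinidase (775 bp), Pnpla3 (825 bp), Pnrc1 (907 bp) and Cdkn1a (943 bp). The strongest of these sites was Arntl. The 5 near a gene end were Nrep, Lbp, Socs2, Gfod1 and Tmbim6. Of the 61 summits within 10 kb of an annotated start, 24 lay before it (39.3%), against 44.1% of such summits among the other peaks.

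Width and fold come from the same signal, so widths are a description. The median width was 5854 bp (quartiles 4132.5 and 8881), against 1665 bp (1030 and 2770) at the other peaks. Sites of 12 kb or more numbered 37 (15.2%), against 0.582% of the other peaks. The widest lay near Bcl6 (21289 bp), around Osgin1 (20850 bp) and near Rnf125 (20586 bp), with folds of 32.9, 32.1 and 47.2. The median width was 5420 bp at folds of 30 to 40, 6626 bp at 40 to 50, 6674.5 bp at 50 to 100 and 9397 bp at 100 or more. Single sites varied around this. The site nearest Il12b spanned 9397 bp and that in Arntl 7204 bp, while 1700010I14Rik spanned 13542 bp, Npas2 12080 bp and Nolc1 20138 bp. Together the 243 sites covered 1748 kb, 2.71% of the 64.4 Mb under ZT10 peaks.

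At the other end, 3 sites were about 210 bp wide and stood apart from the rest. They lay inside Acacb (211 bp), inside Ybx3 (212 bp) and inside Fam227b with Dtwd1 as the nearest gene (209 bp), and the next narrowest, near Asap1, spanned 2019 bp. Their local backgrounds were 2.85, 1.35 and 1.93 times the lowest, where 90.1% of the sites had the lowest. Their summits held 2253, 1021 and 1173 fragments. The Acacb peak therefore had about as many fragments as the site in Loxl4, with a fold of 41.6 in place of 101.99. What sets these 3 apart was not tested, and the fold of the listed lipid gene Acacb rests on one of them.

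**Figure D5:**
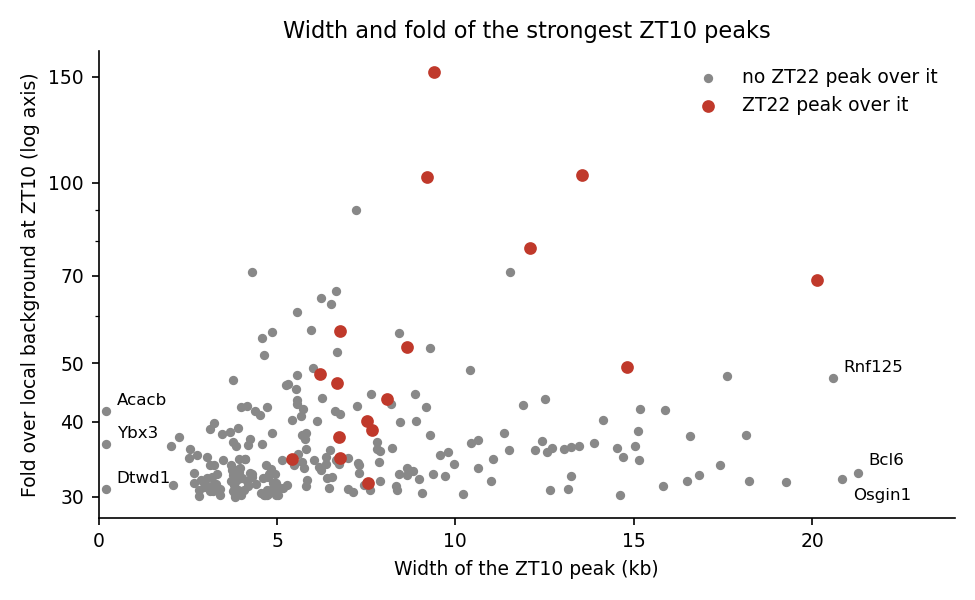
Width of the 243 strongest ZT10 peaks (horizontal axis, kb) against their fold over local background (vertical axis, log scale), each point 1 peak and red where a ZT22 peak overlapped it. The 3 narrowest and 3 widest are labelled with their nearest gene, and the 3 narrow peaks of 209 to 212 bp lie apart from all others, which start at 2019 bp.

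DNA motifs could be searched in promoters only, from 250 bases before to 50 bases after an annotated start, on both strands. A peak of the set overlapped 61 such windows, and AGGTCA stood in 15 of them (24.6%, 14.5 to 37.3), against 14.7% of all 21237 windows and 12.8% of 7997 windows under other ZT10 peaks. For the longer TAGGTCA, which includes the shorter motif, the counts were 6 of 61 (9.84%, 3.70 to 20.2), against 2.33% of all windows and 1.95% under other ZT10 peaks. The 6 windows were those of Arntl, Nfil3, Bhmt, Abcb11, Amotl2 and the first start of Sumo3. TGGGTCA stood in 2 of 61 (3.28%), against 3.56% of all windows. AGGTCA repeated in the same direction with any 1 or any 2 bases between stood in 0 of 61, against 10 and 0 of all 21237. The E-box CACGTG stood in 7 of 61 (11.5%, 4.74 to 22.2), against 7.84% of all windows and 11.4% under other ZT10 peaks. These are matches of letters, windows of neighbouring starts share bases, and no test was made.

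Only 6 windows held a summit of the set, those of Sumo3, Nr1d1, Pla2g6, Nr0b2, Ldha and Bhmt. AGGTCA stood in those of Sumo3 and Bhmt and the E-box in those of Nr0b2 and Ldha. The Arntl summit lay 52 bp after the start, just beyond its window, and the TAGGTCA of that window stands at positions 30 to 36. Of all matches to TAGGTCA in the 61 windows, those of Bhmt and Arntl lay within 20 bp of the summit, and those of Abcb11 and Nfil3 at 205 and 447 bp, while those of Amotl2 and Sumo3 lay 8652 and 7743 bp from it.

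At the limit itself the values run on without a gap. The 5 weakest sites lay near Hcar2 (30.14), Nectin1 (30.14) and Nos1ap (30.05), in Tcp11x2 (30.14) and near Uaca (30.01), with 649 to 652 fragments. The 5 peaks just under it lay near Arrdc4 (29.97), Mturn (29.96), Ppp1r3b (29.91) and Irs2 (29.83) and in Pik3c2g (29.87), with 646 to 754 fragments. Tcp11x2 was the only site on chromosome X, and none lay on Y. Irs2 and Ppp1r3b thus each had a further peak just under the limit.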

How the data were processed

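The deposited data used are 1 peak list per time, made by the authors from 4 pooled samples, per the labels. Tools in the submitters' processing notes, which state no role for them, are MACS2 2.1.2, BWA 0.7.17, SAMtools 1.9, Picard 2.18.12, cutadapt 2.3, deepTools 3.3.0 and bcl2fastq 2.17, with mm10 as the build. What served as the control is not stated in those notes or the labels. Each deposited fold is a ratio of summit signal to local background. The authors also deposited −log10 p, −log10 q and a score, of which the score was not used. No peak has a fold below 4. Start, end and summit positions are as the authors deposited them.

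Sites were taken with a fold of 30 or more. Fragments at a summit were solved from the fold (pseudocount of 1) and the −log10 p, which recovered 99.95% of 2000 simulated summits within 1%. The lists hold no read totals, so total depth is unknown, and intervals cover counting error only. The nearest gene is the protein-coding gene with the nearer end to the summit in a RefSeq table of GRCm38.p6 with 21883 such genes. Starts came from the promoter table, for 79.9% of them and none on chromosome 18, where 6 sites lie. No genome was used, so bases around summits outside promoters were not searched.

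The sites and the gene lists were chosen with earlier results of these data known. Named genes are those nearest the 40 highest folds, any site with a ZT22 peak, any site whose nearest gene is on a list, the 5 peaks on each side of the limit, the 3 widest and 3 narrowest, genes with 2 or more sites, and promoters that hold a summit. Bhmt2, Btd, Nrep, Lbp, Tmbim6, Amotl2, Asap1 and the genes of the closing observations were named after their values were seen. The 2 sites of 1 listed gene are counted but not reported here. Shares have exact Clopper-Pearson intervals at 95%, which treat sites as independent and leave out the spread between animals. The limit given for a count of 0 is an approximation instead. Other fold limits, overlaps, q limits and gene sets were tried. The work used Python 3.11.15, pandas 2.3.3, NumPy 2.4.6 and SciPy 1.17.1.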

Additional observations from a re-analysis of the deposited data

How the results depend on the processing

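No paired analysis was possible because each time has only the authors' pooled list, and for the same reason no sample could be left out. Of 36 alternative values of 7 results, 24 stayed within the 95% interval of the reported share or median or, for counts, within 1.5 times. With a fold limit of 25 there were 558 sites, 3.05% with a ZT22 peak, a median width of 5312.5 bp and 65 listed genes. With a limit of 40 there were 62 sites, 19.4% with a ZT22 peak, a median width of 6684.5 bp and 7 listed genes. Counting all annotated genes, 56.0% of summits lay inside a gene, 14.4% within 1 kb of a gene end and 6.58% beyond 50 kb. These alternatives were computed for the strongest sites only, with no matching value for the other peaks. With ZT22 peaks of −log10 q of at least 5 or 10, the share with a ZT22 peak was 6.17% or 4.53%, and with summits within 100 bp it was 5.76%. Chosen after seeing the data were annotated starts only, with 41.4% beyond 50 kb, and the set without the 3 narrow sites, with 7.08% under a ZT22 peak and 39.6% inside a gene. Also chosen after seeing the data was the ZT22 peak with the nearest summit in place of the one of highest fold, which gave 14.8% in place of 11.2% at 1 Adra1b site and 9.21% in place of 10.0% at H6pd. Position results rest on a table of genes with starts for only part of them, and the ZT22 overlap on the 82 fragments that a listed ZT22 peak needed. Differences between ZT10 and ZT22 carry no replicate error.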

Other observations

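Further groups of nearest genes, picked after their values were seen and so without any count against other peaks, are given as values. Among nuclear receptors and their coregulators were, besides Nr1d1, Rora, Nr0b2, Ppard, Tbl1xr1 and Nrip1, Nr4a1, an orphan receptor induced by many stimuli (33.0), and Pnrc1, a receptor coactivator with 2 sites (34.5 and 33.9). Regulatory subunits of protein phosphatases were the nearest gene of 5 sites: Ppp2r5c (53.3), Ppp2r5a (36.1 and 31.6), Ppp1r3b (34.5) and Ppp1r3g (32.3). Enzymes of retinoid metabolism were Dhrs3 (44.5), Dhrs9, a retinol dehydrogenase (36.4), and Cyp26a1, which breaks down retinoic acid (30.1). Among G protein-coupled receptor genes were Adra1b (37.7 and 34.6), Gabbr2 (32.6), Avpr1a (31.9), the olfactory receptor gene Olfr541 (31.8), Adra2a (31.2), Grm7 (30.8) and Hcar2 (30.1), and the summits of Gabbr2 and Grm7 lay inside those genes. The value in parentheses is the fold at ZT10.

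Sites were spread over 19 autosomes and X. Chromosome 1 held 22 of the 243, which is 9.05% of the sites against 6.37% of all ZT10 peaks. Chromosome 15 held 20 (8.23% against 4.35%), while chromosome 6 held 6 (2.47% against 5.90%). Hairpins of 3 miRNA genes lay under sites of the set: Mir6349 under the Npas2 peak of fold 77.7, Mir1982 under a peak near Jsrp1 (41.8) and Mir6392 under the Pnpla3 peak of fold 31.8. Summits lay near the middle of the peaks, at a median of 52.3% of the width from the left edge, with a range from 9.68% to 89.6%. The median at the other peaks was close to this, 49.7%.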
